A study of Mus musculus with 6 samples.

Results

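The genes described here encode the proteins of the cytosolic ribosome. They were the protein-coding rows of the count table named Rpl or Rps with a number and at most 1 of the letters a, x or y, together with *Rplp0*, *Rplp1*, *Rplp2* and *Rpsa*. Kinases of the Rps6k family and pseudogene names were left out. The rule gave 76 of the 43346 rows, 46 for the large subunit and 30 for the small subunit. By its wording it leaves out genes such as *Rps3a1*, *Fau* and *Rack1*, which also encode ribosomal proteins and are described with the paralogs.

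The RNA-seq compared 3 control with 3 senescent samples of mouse adult fibroblasts (MAFs). These primary cells came from ear tissue of adult C57BL6/J females. Senescent cells had been exposed to 20 Gy of X-rays and kept in culture for weeks afterwards, and control cells were sham irradiated. Both groups grew at 3% oxygen in medium with 10% serum. Both also received 100 nM dexamethasone, a glucocorticoid that brings cellular clocks into phase, for 2 h, and were collected 12 h later, so that no group without dexamethasone and no other time was compared. Irradiation, arrest and the weeks in culture separate the groups together and cannot be told apart. The labels do not say whether replicates came from separate animals or cultures, so the p-values measure the spread between these samples, which may be technical.

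Each ribosome carries one copy of nearly every ribosomal protein (RP), and cells make these proteins in matched amounts, from genes scattered over the genome. RP mRNAs are among the most abundant mRNAs of growing cells. In mammals they start with a C followed by a run of pyrimidines, the 5′ terminal oligopyrimidine (TOP) tract, through which the kinase mTOR and the RNA-binding protein LARP1 control their translation and stability. RPs that are not built into ribosomes are usually degraded, and several of them, with the 5S ribosomal RNA, bind MDM2 and thereby raise p53.

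The sequences below show what a TOP tract looks like at the starts of members that are described later: 4 of the longest tracts found, 3 of the members whose change lay closest to the median of all members (*Rps18*, *Rpl28*, *Rps23*), 1 among the largest decreases (*Rps26*), 1 among the smallest (*Rps24*), a stalk protein (*Rplp2*) and the classical phosphorylated RP (*Rps6*). They were taken from RefSeq (GRCm38.p6, the same assembly as mm10), run 5′ to 3′ on the strand of the gene and extend from 10 bases before the annotated start through 20 bases from the start onward. Capitals mark a C followed by at least 4 pyrimidines (C or T), with the C within 5 bases of the start.
Rpl27a (chr7:109519185-109519214, plus strand): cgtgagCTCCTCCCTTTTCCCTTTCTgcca
Rpl15 (chr14:18270967-18270996, minus strand): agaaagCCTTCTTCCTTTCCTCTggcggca
Rpl35 (chr2:39005112-39005141, minus strand): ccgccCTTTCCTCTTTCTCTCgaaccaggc
Rps10 (chr17:27635225-27635254, minus strand): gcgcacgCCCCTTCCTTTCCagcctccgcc
Rps18 (chr17:33955646-33955675, minus strand): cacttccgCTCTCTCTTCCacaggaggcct
Rpl28 (chr7:4792955-4792984, plus strand): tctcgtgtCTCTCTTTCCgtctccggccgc
Rps23 (chr13:90923112-90923141, plus strand): cggctgggcggggCTTCCCgcaatgccttg
Rps26 (chr10:128626487-128626516, minus strand): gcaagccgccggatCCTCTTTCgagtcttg
Rps24 (chr14:24490668-24490697, plus strand): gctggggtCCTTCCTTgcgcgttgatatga
Rplp2 (chr7:141447641-141447670, plus strand): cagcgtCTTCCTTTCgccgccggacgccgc
Rps6 (chr4:86857348-86857377, minus strand): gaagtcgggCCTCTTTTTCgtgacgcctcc

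RefSeq gave a start for 56 of the 76 members, and 27 of them (48.2%, exact binomial 95% CI 34.7 to 62.0) had such a tract. Over the 27025 genes of the same promoter table the share was 21.2%. With the C allowed within 20 bases of the start, the shares were 46 of 56 members (82.1%) and 53.3% of all genes. Only the strand of the gene was read, and a match is a description of the letters at an annotated start, which can lie some bases from the start that cells use.

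Total counts lay between 50288454 and 82229553 per library. All 10 fibroblast markers were detected, at a summed 63764 to 65730 CPM (the usual unit of counts relative to the library total, here scaled by TMM, which assumes that most genes do not differ) in control cells and 47958 to 53450 CPM in senescent cells. The 10 proliferation genes all fell, among them *Mki67*, a marker of cycling cells, at -5.94 (SE 0.12, adjusted p = 1.73e-08) log2 units in edgeR's quasi-likelihood test (p adjusted over all genes tested), and *Lmnb1*, a nuclear lamina protein, at -3.55 (adjusted p = 1.25e-08). The 3 CDK inhibitors all rose, *Cdkn1a* (p21) by 2.33 (adjusted p = 2.54e-08) and *Cdkn2a* (p16) by 1.90 (adjusted p = 0.000398). Chondrocyte markers, present in control cells at 7594 to 8181 CPM, summed to 618 to 701 CPM in senescent cells, and all 11 that could be tested of 12 fell. Keratinocyte markers summed to 15.9 to 16.6 and 26.7 to 27.7 CPM, macrophage markers to 8.30 to 9.05 and 18.8 to 21.8 CPM, and endothelial markers to 2.55 to 2.93 and 8.16 to 8.71 CPM in control and senescent cells. *Matn1* of the chondrocyte markers, *Krt14*, *Krt1* and *Lor*, *Emr1* and *Fcgr1*, and *Emcn* stayed under 0.5 CPM in all 6 libraries. The part of these cell types in the RP values was not tested, and in such bulk samples fewer cells of a type and less RNA per cell cannot be told apart. Of the fibroblast markers 5 were lower and 3 higher, of the keratinocyte markers 1 was lower and 2 were higher, and 6 macrophage and 5 endothelial markers were higher, where 34.1% of all genes tested were lower and 36.2% higher. Senescent replicate 3 stood apart from the other senescent libraries, and values without it are given for some of the results that it moved.

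Ribosomal protein mRNAs took about 4% of all counts in control cells and about 2% in senescent cells. The 76 members held 3.90%, 4.23% and 4.09% of the counts in control replicates 1, 2 and 3, and 2.21%, 2.26% and 1.89% in senescent replicates 1, 2 and 3. All senescent libraries lay below all control libraries, and senescent replicate 3 was the lowest. The means were 4.07% ± 0.162 (SD, n = 3) and 2.12% ± 0.200 (SD, n = 3), a ratio of 0.520. Both subunits were reduced to a similar degree, the large subunit members from 2.34% ± 0.0947 to 1.22% ± 0.118 and the small subunit members from 1.74% ± 0.0670 to 0.894% ± 0.0822 (SD, n = 3 each). The ratio of large to small subunit counts was 1.346 ± 0.00333 in control cells and 1.368 ± 0.00702 in senescent cells (SD, n = 3), a difference of under 2% between groups that did not overlap. With 3 against 3 libraries, an exact permutation test of a single value cannot give a two-sided p below 0.1, and none was made. These shares are relative to all counted mRNA, and the amount of mRNA per cell was not measured.

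**Figure D1:**
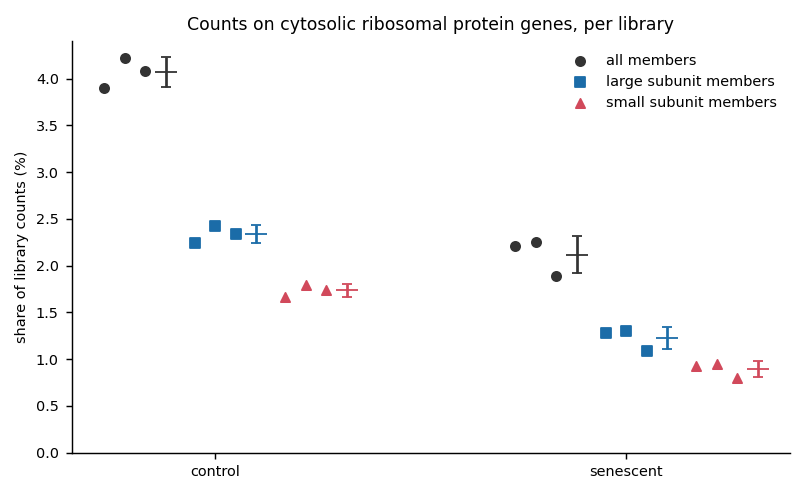
Share of all library counts (%) on the 76 ribosomal protein genes and on the members of the large and small subunit, for 3 control and 3 senescent libraries, with the mean and SD beside each set of points. All members lay between 3.90% and 4.23% in control libraries and between 1.89% and 2.26% in senescent libraries, without overlap in any of the 3 sets.

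The decrease was spread over nearly all members. At an adjusted p under 0.05 in edgeR's quasi-likelihood test, 75 of 76 members were lower in senescent cells, where 34.1% of the 17589 genes tested were. None was higher, where 36.2% of all genes were (70.3% of all genes differed in either direction), and none was higher at an unadjusted p under 0.05, by edgeR's exact test or by DESeq2. Among the 1126 genes at least as abundant as all but the lowest members (163.5 CPM or more, the 5th percentile of the members), 44.2% were lower. All 76 fitted changes lay below 0, and in 75 members every senescent library lay below every control library, against 37.0% of all genes. No member had every senescent library above every control library, which 38.4% of all genes did. The median log2 fold change was -1.03, or 49.0% of the control level, and the changes ran from -1.78 to -0.53 with an SD of 0.25 over the members. The median over all genes tested was 0.01. A log2 fold change below -1 with an unadjusted p under 0.05, the limits stated in the methods of the study for these libraries, was met by 39 members and by 12.3% of all genes in the same direction.

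**Figure D2:**
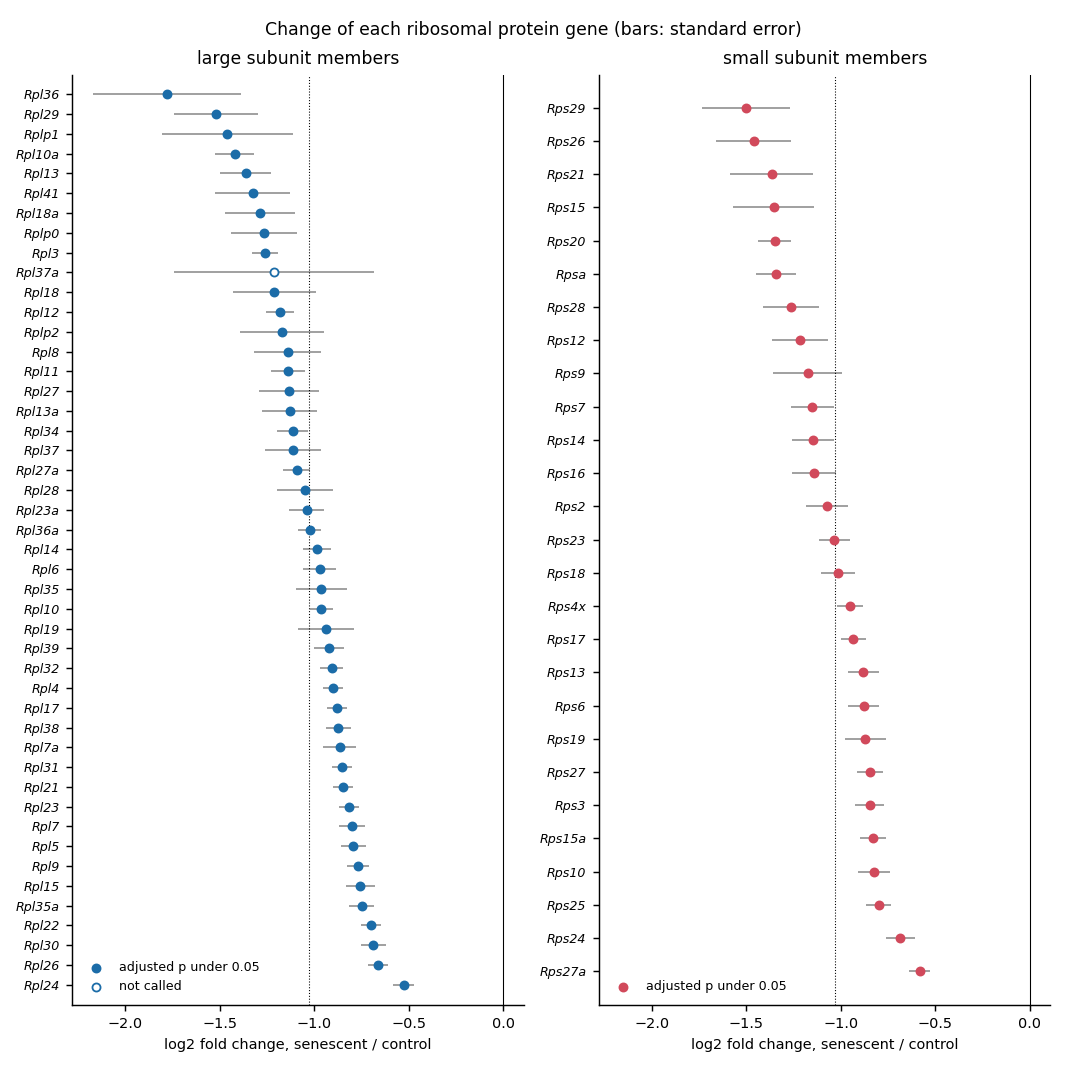
Log2 fold change of 73 of the 76 members (senescent over control, fitted on 3 against 3 libraries, bars: standard error), large subunit left and small subunit right, with the median of -1.03 as a dotted line. All points lie below 0, from -1.78 (*Rpl36*) to -0.53 (*Rpl24*), and the open point is *Rpl37a*, the only member not called.

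The exception was *Rpl37a*, a zinc-finger protein of the large subunit. It read 150.0, 412 and 150.2 CPM in control replicates 1, 2 and 3 and 177, 76.8 and 54.5 CPM in senescent replicates 1, 2 and 3. A single control library was high, the other control libraries lay below senescent replicate 1, and the groups overlapped. Its change was -1.21 (SE 0.53, adjusted p = 0.071), and -0.55 without control replicate 2. It passed the threshold in the exact test and without senescent replicate 1 (-1.85).

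The largest decreases were in *Rpl36*, *Rpl29*, *Rps29*, *Rps26*, *Rplp1* and *Rpl10a*, which kept 29.1% to 37.4% of their control level. *Rpl36* (mm10 chromosome 17, 56613395 to 56614243), a protein on the solvent side of the large subunit, read 67.8, 108 and 92.3 CPM in control replicates 1, 2 and 3 and 29.1, 37.7 and 11.4 CPM in senescent replicates 1, 2 and 3. The groups did not overlap, although senescent replicate 3 was far below the other senescent libraries. Its change was -1.78 (SE 0.39, adjusted p = 0.00405), from edgeR's quasi-likelihood fit and Benjamini-Hochberg adjustment over the genes tested, and -1.41 (adjusted p = 0.0201) without senescent replicate 3. With no filter beyond 1 count in total, its call was lost (adjusted p = 0.0556). *Rpl29* (chromosome 9, 106429454 to 106431568), a small basic protein of the large subunit, had 303, 390.2 and 369.9 CPM in control cells against 134, 155 and 81.7 CPM in senescent cells, for a change of -1.52 (SE 0.22, adjusted p = 0.00045). *Rps29* (chromosome 12, 69157722 to 69159186), a zinc-binding protein of the small subunit head, had 297, 373 and 362 CPM in control cells against 137, 151 and 76.6 CPM in senescent cells, for a change of -1.50 (SE 0.23, adjusted p = 0.00064). In both, senescent replicate 3 was the lowest library and control replicate 1 the lowest control. Without senescent replicate 3, *Rpl29* changed by -1.28 and *Rps29* by -1.25. *Rpl10a* (chromosome 17, 28328471 to 28331032), the protein of the L1 stalk where spent tRNA leaves, had 337, 383 and 370.2 CPM in control cells against 145, 148 and 115 CPM in senescent cells, for a change of -1.42 (SE 0.10, adjusted p = 9.80e-06). Its libraries were closer to each other, and without senescent replicate 3 the change was -1.31.

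Among the smallest decreases were those of *Rpl24*, *Rps27a*, *Rpl26*, *Rps24* and *Rpl30*, which kept 62.1% to 69.5% of the control level. *Rpl24* (chromosome 16, 55966275 to 55971435), a protein that bridges the subunits, had 281, 306 and 288 CPM in control cells against 204, 206 and 197 CPM in senescent cells, for a change of -0.53 (SE 0.06, adjusted p = 7.69e-05). The overlapping gene *Gm28037* (55966343 to 55980721 on the same chromosome) held 98.7% as many counts as *Rpl24* over the 6 libraries, so its value cannot be assigned to one gene alone. *Rps27a* (chromosome 11, 29545846 to 29548109), which is made as a fusion with ubiquitin, had 314, 317 and 305 CPM in control cells against 201, 206 and 217 CPM in senescent cells, for a change of -0.58 (SE 0.06, adjusted p = 3.70e-05). In *Rps27a* the senescent libraries lay close together and senescent replicate 3 was the highest of them, unlike in the members with large decreases. *Rpl26*, which binds near the exit of the peptide tunnel, changed by -0.66 (adjusted p = 1.61e-05), *Rps24* by -0.69 (adjusted p = 0.000102) and *Rpl30* by -0.69 (adjusted p = 4.57e-05).

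The members closest to the median show the usual size of the change. *Rps23*, which sits at the decoding centre, read 488, 547 and 506 CPM in control replicates 1, 2 and 3 and 252, 272 and 227 CPM in senescent replicates 1, 2 and 3. Every senescent library lay below every control library, and its change was -1.04 (SE 0.08, adjusted p = 1.42e-05). *Rpl36a*, *Rpl23a*, *Rps18* and *Rpl28* changed by -1.02, -1.04, -1.01 and -1.05, with adjusted p between 3.02e-06 and 0.000384.

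Members were then read by their place in the ribosome or another role. As 75 of 76 members were lower (34.1% of all genes tested), nearly any group taken from them is all lower. The group medians stand beside -1.03 for all members, and differences between groups were not tested. In the stalk that recruits elongation factors, all 4 genes (*Rplp0*, *Rplp1*, *Rplp2* and *Rpl12*) were lower, with a median of -1.22. *Rplp1* (chromosome 9, 61913284 to 61914538) read 577, 804 and 799 CPM in control replicates 1, 2 and 3 and 311, 355 and 126 CPM in senescent replicates 1, 2 and 3. Senescent replicate 3 lay far below the other senescent libraries, and the groups did not overlap. The change of *Rplp1* was -1.46 (SE 0.35, adjusted p = 0.00592), -1.12 without senescent replicate 3, and -0.93 and no longer past the threshold once GC content and length were taken into account. With no filter beyond 1 count its call was lost too (adjusted p = 0.0687). *Rplp0*, the base of the stalk and a common reference gene in qPCR, had 1573, 1755 and 1744 CPM in control cells against 777, 832 and 499.8 CPM in senescent cells, for a change of -1.27 (SE 0.17, adjusted p = 0.000336). The change of *Rplp0* without senescent replicate 3 was -1.06. *Rpl12* had 581 ± 18.4 CPM (SD, n = 3) in control cells and 256 ± 22.5 CPM (SD, n = 3) in senescent cells and changed by -1.18 (SE 0.07, adjusted p = 4.31e-06).

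*Rpl5* and *Rpl11*, which carry the 5S RNA into the large subunit and bind MDM2 when free, were both lower. *Rpl5* had 567, 567 and 564 CPM in control cells against 315, 311 and 354 CPM in senescent cells, for a change of -0.79 (SE 0.06, adjusted p = 1.77e-05). *Rpl11* had 385, 409 and 391 CPM in control cells against 185, 198 and 155 CPM in senescent cells, for a change of -1.14 (SE 0.09, adjusted p = 1.58e-05). Neither overlapped between groups, and the fall of *Rpl11* was the larger by its fitted value. That difference was not tested. Of the proteins best known for binding MDM2, *Rpl23* changed by -0.81 (adjusted p = 5.05e-06) and *Rps7* by -1.15 (adjusted p = 4.88e-05), so that 4 of 4 were lower with a median of -0.98. This compares with 75 of 76 members lower (median -1.03) and 34.1% of all genes tested.

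The 7 proteins around the exit of the peptide tunnel (*Rpl17*, *Rpl19*, *Rpl23a*, *Rpl26*, *Rpl31*, *Rpl35* and *Rpl39*) were all lower, with a median of -0.92 and a range from -1.04 to -0.66. Of all members 75 of 76 were lower (median -1.03), and of all genes tested 34.1%. *Rpl17* was among the tightest members, with 445, 456 and 454 CPM in control cells against 238, 251 and 248 CPM in senescent cells and a change of -0.88 (SE 0.05, adjusted p = 2.59e-06). *Rpl31* had 262 ± 6.86 CPM (SD, n = 3) in control cells and 145 ± 1.69 CPM (SD, n = 3) in senescent cells and changed by -0.85 (SE 0.05, adjusted p = 3.01e-06). Rows that overlap *Rpl19* held 16.2% as many counts as *Rpl19* itself.

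Groups of the small subunit are again read beside 75 of 76 members lower (median -1.03) and 34.1% of all genes tested. In the small subunit, the 14 proteins of the head were all lower, with a median of -1.08. They ranged from *Rps29* to *Rps27a*, and the members between included *Rps20* at -1.35 (adjusted p = 5.15e-06), *Rps19* at -0.87 (adjusted p = 0.000189) and *Rps3*, a protein at the entry of the mRNA, at -0.85 (adjusted p = 3.18e-05). The 6 proteins that line the path of the mRNA, among them *Rps2*, *Rps3*, *Rps14*, *Rps26* and *Rps28*, were all lower with a median of -1.20. *Rps26* (chromosome 10, 128624530 to 128626506), which contacts mRNA just before it leaves the ribosome, read 272, 339 and 342 CPM in control replicates 1, 2 and 3 and 132, 135 and 79.5 CPM in senescent replicates 1, 2 and 3. Its senescent libraries were all below its control libraries, with senescent replicate 3 the lowest. The change of *Rps26* was -1.46 (SE 0.20, adjusted p = 0.000315), and -1.24 without senescent replicate 3. *Rps2* had 999 ± 31.5 CPM (SD, n = 3) in control cells and 475 ± 73.1 CPM (SD, n = 3) in senescent cells and changed by -1.07 (SE 0.11, adjusted p = 6.18e-05). *Rpsa*, which is also known as the laminin receptor, had 1436, 1568 and 1506 CPM in control cells against 629, 653 and 496 CPM in senescent cells, for a change of -1.34 (SE 0.11, adjusted p = 1.41e-05). *Rps6*, the substrate of S6 kinase, had 391, 429 and 404 CPM in control cells against 225, 242 and 198 CPM in senescent cells, for a change of -0.88 (SE 0.08, adjusted p = 3.76e-05). In none of *Rps2*, *Rpsa* and *Rps6* did the groups overlap.

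The 17 members known as genes of Diamond-Blackfan anemia, a disorder of too little of a single RP, were all lower with a median of -0.93, from -1.50 (*Rps29*) to -0.66 (*Rpl26*). *Rps19*, the gene most often mutated in it, had 499.6, 585 and 563 CPM in control cells against 318, 329 and 254 CPM in senescent cells. The 4 members on the X chromosome (*Rps4x*, *Rpl10*, *Rpl36a* and *Rpl39*) were all lower with a median of -0.96, and their changes lay within -1.02 to -0.92. Both groups stand beside 75 of 76 members lower (median -1.03) and 34.1% of all genes tested. *Rps4x* (chromosome X, 102184941 to 102189394) had 1242, 1189 and 1197 CPM in control cells against 613, 584 and 679.6 CPM in senescent cells, for a change of -0.95 (SE 0.07, adjusted p = 8.52e-06).

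Levels of different members were compared only per length, as CPM divided by the length of annotated exons in kilobases (RPKM). The length includes exons of all annotated transcripts, so a member with long rarely used exons reads low. Control levels ran from 80.4 RPKM (*Rpl27a*) to 1468 RPKM (*Rplp1*) with a median of 340.5, and senescent levels started at 37.7 RPKM (*Rpl27a*) with a median of 166. The 5 highest members in control cells were *Rplp1*, *Rpl32*, *Rps27*, *Rps12* and *Rpl4*. *Rplp1* had 1468 ± 262 RPKM (SD, n = 3) in control cells and 534 ± 246 RPKM (SD, n = 3) in senescent cells, and *Rpl32* had 1339.6 ± 47.3 RPKM (SD, n = 3) in control cells and 714 ± 35.2 RPKM (SD, n = 3) in senescent cells. *Rps27* had 1337 ± 70.4 RPKM (SD, n = 3) in control cells and 743 ± 44.6 RPKM (SD, n = 3) in senescent cells, *Rps12* had 1286 ± 92.2 RPKM (SD, n = 3) in control cells and 553 ± 115 RPKM (SD, n = 3) in senescent cells, and *Rpl4*, a protein that reaches into the peptide tunnel, had 1229 ± 1.70 RPKM (SD, n = 3) in control cells and 659 ± 26.03 RPKM (SD, n = 3) in senescent cells. In control cells the ranges of *Rplp1*, *Rpl32*, *Rps27* and *Rps12* over the libraries overlapped, so these neighbours are not separated by their spread. The range of *Rpl4* lay within those of *Rplp1* and *Rps12*. By group means, *Rplp1* moved from the first place in control cells to the sixth in senescent cells. It read 629, 718 and 254 RPKM in senescent replicates 1, 2 and 3, so senescent replicate 3 pulled its mean down. Over the 76 members, log2 RPKM in control and senescent cells had Pearson's r = 0.973 and Spearman's rho = 0.969, a description across genes that share libraries and lengths.

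To ask which members fell by another amount than the RPs as a whole, the summed member counts were used as library size. Most members then showed no difference past the threshold. By edgeR's quasi-likelihood test, 10 of 76 were lower (6.74% of all genes were lower in this fit) and 8 were higher (78.6% of all genes were higher, since all are read against a falling sum). Among the lower members were *Rpl36* at -0.79 (SE 0.32, adjusted p = 0.0434), *Rpl29* at -0.51 (SE 0.17, adjusted p = 0.0176), *Rps29* at -0.50 (SE 0.18, adjusted p = 0.0261), and *Rps26*, *Rpl10a*, *Rpl13*, *Rps20*, *Rpsa* and *Rpl3*. Among the higher members were *Rpl24* at 0.50 (SE 0.10, adjusted p = 0.000875), *Rps27a* at 0.45 (SE 0.12, adjusted p = 0.00617), *Rpl26*, *Rps24*, *Rpl30*, *Rpl22* and *Rpl15*. These counts depended on single libraries. Without senescent replicate 3, 15 were lower and 16 higher, and *Rpl36* at -0.47 (adjusted p = 0.132) was no longer called. Without control replicate 2, 3 were lower and 4 higher, and without control replicate 3, 3 were lower and 3 higher.

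**Figure D3:**
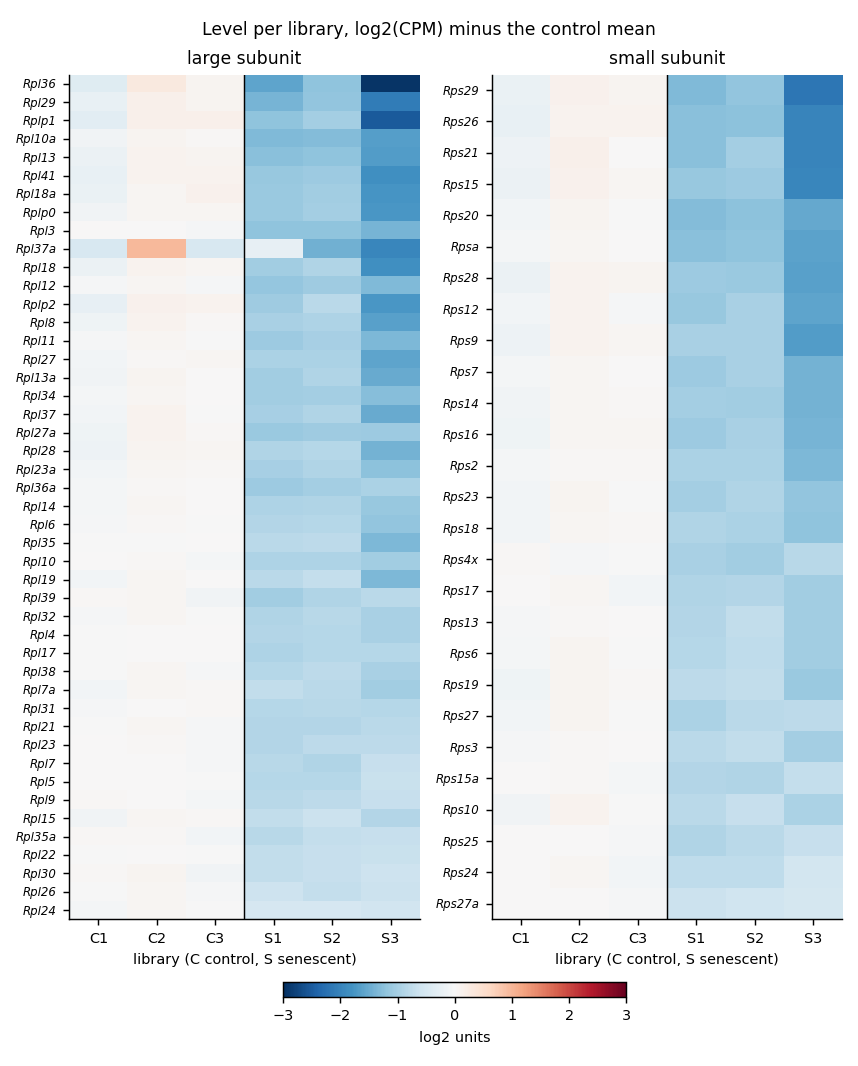
Level of 73 members in each library, as log2 CPM minus the mean of the 3 control libraries, with members ordered by their change and C1 to C3 control, S1 to S3 senescent. Senescent replicate 3 (S3) is darkest for the members with the largest decreases and lies near or above the other senescent libraries for those at the bottom, and control replicate 2 (C2) stands out in *Rpl37a*.

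The spread among members followed 1 library in part. The median member lay at 51.7%, 53.4% and 42.8% of the control mean in senescent replicates 1, 2 and 3. Senescent replicate 3 was the lowest senescent library for 55 members and the highest for 16, and 24 members lay over 0.5 log2 units below the mean of the other senescent libraries in it. Control replicate 1 was the lowest control library for 56 members. The members that were low in senescent replicate 3 were richer in G and C, with a median GC content of transcripts of 54.2% for those 24 members and 50.7% for the other 52. Over the 76 members, log2 fold change against GC content gave r = -0.55 and rho = -0.53, and r = -0.39 and rho = -0.37 without senescent replicate 3. The deviation of senescent replicate 3 from the other senescent libraries gave r = -0.66 and rho = -0.65, and that of control replicate 1 from the other control libraries r = -0.55 and rho = -0.61. Over 17425 genes tested, log2 fold change against GC content gave r = -0.09 and rho = -0.16. These are descriptions across genes that share the same libraries, and the part of GC content in the spread was not tested. With offsets for GC content and length, 74 members were lower with a median of -0.93, and without senescent replicate 3, 75 were lower with a median of -0.94 and a range from -1.41 to -0.50. Members with a TOP tract at the annotated start had a median of -0.99 (n = 27) and those without one a median of -1.02 (n = 29).

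**Figure D4:**
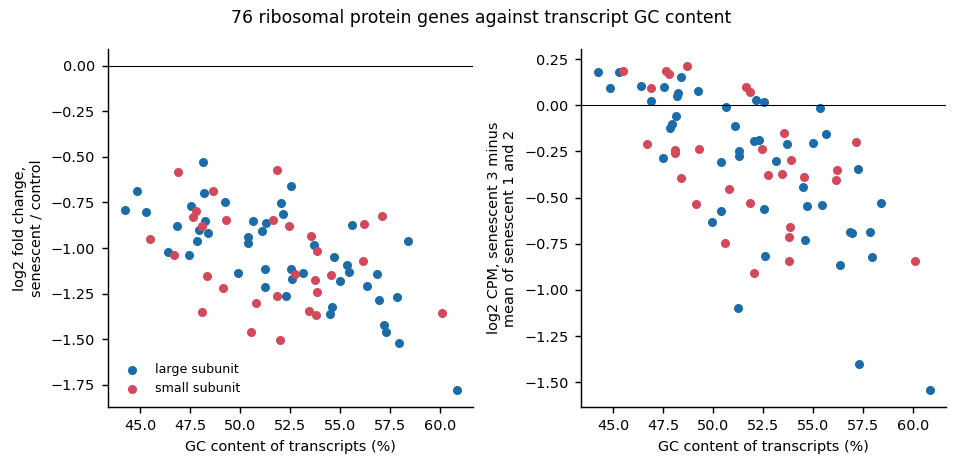
GC content of transcripts (%) of the 76 members against log2 fold change (left) and against the log2 CPM of senescent replicate 3 minus the mean of senescent replicates 1 and 2 (right), each point 1 gene. Points fall toward the right in both panels, with r = -0.55 and r = -0.66, and *Rpl36*, at a GC content of 60.8%, is the lowest point in both.

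RPs outside the rule and paralogs with restricted or regulated use were read from a list of 13 genes. Of the 11 that could be tested, 8 were lower and 1 was higher, against 34.1% and 36.2% of all genes tested. The core RPs named here that the rule leaves out were lower. *Rps3a1* had 945, 916 and 903 CPM in control cells against 490.1, 488 and 525 CPM in senescent cells and changed by -0.88 (SE 0.06, adjusted p = 3.89e-06). *Gnb2l1*, which is the older name of *Rack1*, a scaffold on the small subunit head, changed by -1.03 (adjusted p = 4.13e-05). *Fau*, the ubiquitin-like fusion of a small subunit protein, changed by -1.19 (adjusted p = 0.00222).

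Paralogs did not all follow their partners. *Rpl22l1*, the paralog of *Rpl22*, fell further than any member by its fitted value, with 171, 171 and 166 CPM in control cells against 44.5, 44.2 and 53.5 CPM in senescent cells and a change of -1.84 (SE 0.08, adjusted p = 7.29e-07). Per length, its level was 81.9% ± 0.987 (SD, n = 3) in control cells and 37.2% ± 3.48 (SD, n = 3) in senescent cells of that of *Rpl22*, without overlap. *Rps27l*, the paralog of *Rps27* and a known p53 target, rose, with 108, 107 and 107 CPM in control cells against 126, 135 and 138 CPM in senescent cells and a change of 0.31 (SE 0.06, adjusted p = 0.00172). Its level per length was 9.87% ± 0.589 (SD, n = 3) in control cells and 21.9% ± 0.246 (SD, n = 3) in senescent cells of that of *Rps27*, also without overlap. *Rpl36al*, a paralog of *Rpl36a*, was lower at -0.51 (adjusted p = 6.18e-05) and its level per length was 58.3% ± 1.58 (SD, n = 3) in control cells and 83.1% ± 4.17 (SD, n = 3) in senescent cells of that of *Rpl36a*. *Rpl7l1* had 118 ± 3.34 CPM (SD, n = 3) in control cells and 123 ± 4.03 CPM (SD, n = 3) in senescent cells with a change of 0.06 (adjusted p = 0.366), and *Rpl39l* had 6.21 ± 0.275 CPM (SD, n = 3) in control cells and 6.16 ± 0.155 CPM (SD, n = 3) in senescent cells with a change of -0.01 (adjusted p = 0.907), whose sign differed between settings. Their levels per length were 10.5% ± 0.162 (SD, n = 3) in control cells and 19.1% ± 1.99 (SD, n = 3) in senescent cells of *Rpl7* and 3.00% ± 0.319 (SD, n = 3) in control cells and 5.63% ± 0.557 (SD, n = 3) in senescent cells of *Rpl39*. *Rps27rt* was lower at -0.85 (adjusted p = 3.00e-05) and *Rps4l* at -1.16 (adjusted p = 0.00791), and their ratios to *Rps27* and *Rps4x* overlapped between groups. *Rpl10l*, used in the testis, had 0 counts in every library, which allows up to 0.0613 CPM in the shallowest library. *Rpl3l*, a gene of striated muscle, had at most 6 counts.

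Many RP genes have processed pseudogenes with nearly the same sequence, and reads can be shared between them. Only rows named for an RP with the ending -ps were read, so pseudogenes under other names are left out and these shares can be too low. The 252 pseudogene rows held 0.161% ± 0.00434 of counts in control cells and 0.0872% ± 0.00484 in senescent cells (SD, n = 3). They amounted to 3.95% ± 0.0652 and 4.13% ± 0.174 of the member counts, and adding them to the members left the senescent to control ratio at 0.521. Genomic overlap touched 42 members. For 7 members, the overlapping rows together held over 5% as many counts as the member itself. These were *Rpl24*, *Rpl13* (60.8%, mostly *Gm20388*), *Rpl19*, *Rps18* (7.85%, *Vps52*), *Rpl18* (7.56%, *Sphk2*), *Rpl12* (6.84%, *Lrsam1*) and *Rpl15* (5.57%, *Nkiras1*). Each overlapping row was counted in full, so these percentages do not give the share of a member's reads that lie in the other gene. *Gm20388* spans 119910841 to 124345722 on chromosome 8, far beyond *Rpl13*. *Gm20388* itself changed by -0.08 (adjusted p = 0.504), while *Rpl13* changed by -1.36 (adjusted p = 5.33e-05). The strand setting of the counting is not given in the sources used here, so counts of overlapping genes cannot be assigned with certainty.

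Most of the tested genes that build ribosomes were higher in senescent cells. The small subunit processome is the particle that folds and cuts the precursor of the small subunit RNA. Of 51 tested genes of the processome and of later small subunit assembly, 40 rose and 3 fell, with a median of 0.71. Processome counts given later refer to this whole list. *Cirh1a* (also called *Utp4*) had 43.2, 42.3 and 40.7 CPM in control cells against 93.6, 94.9 and 97.5 CPM in senescent cells, for a change of 1.18 (SE 0.05, adjusted p = 6.43e-07). *Nop14* had 44.8, 43.6 and 44.1 CPM in control cells against 91.8, 86.3 and 92.6 CPM in senescent cells, for a change of 1.03 (SE 0.06, adjusted p = 1.56e-06). Both were higher in every senescent library than in any control library. Among the 3 lower genes were *Ddx47*, a helicase, at -0.23 (adjusted p = 0.00461) and *Emg1*, a methyltransferase of the small subunit RNA, at -0.19 (adjusted p = 0.0234). The call of *Emg1* was lost in 7 of 15 alternatives, and the lower count of the list was 1 with library size alone, a floor of 10 counts or the replicate block.

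Of 61 genes listed for assembly of the large subunit, 50 rose and 2 fell, with a median of 0.62. The list also holds *Midn*, whose part in this assembly is not established. *Mdn1*, the giant ATPase that strips assembly factors from the particle, had 78.6, 75.8 and 74.5 CPM in control cells against 189, 192 and 212 CPM in senescent cells, for a change of 1.37 (SE 0.06, adjusted p = 8.01e-07). *Rrs1*, which helps to place the 5S particle, had 21.4, 22.2 and 22.7 CPM in control cells against 50.2, 52.3 and 50.5 CPM in senescent cells, for a change of 1.21 (SE 0.06, adjusted p = 9.60e-07). The 2 lower genes were *Nsa2* at -0.62 (adjusted p = 7.83e-05) and *Pelp1* at -0.41 (adjusted p = 0.0215), whose call was lost without control replicate 2 or 3. Of 16 core proteins of small nucleolar particles and their assembly, which guide modification of ribosomal RNA, 10 rose and 1 fell, with a median of 0.36 (0.23 with offsets for GC content and length). *Znhit6* changed by 1.57 (adjusted p = 1.40e-06), *Nop56* by 0.73 (adjusted p = 5.89e-06) and *Pih1d1*, the lower one, by -0.81 (adjusted p = 0.00138). Over all genes tested, 36.2% were higher and the median was 0.01.

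The machinery that transcribes ribosomal RNA was mixed, with 9 of 23 genes higher, 6 lower and a median of 0.14, against 36.2% and 34.1% of all genes tested. Library size alone gave 12 higher genes, 5 lower genes and a median of 0.22. *Rrn3*, the initiation factor of RNA polymerase I, had 56.8, 55.0 and 53.4 CPM in control cells against 103, 98.8 and 108 CPM in senescent cells, for a change of 0.90 (SE 0.06, adjusted p = 4.61e-06). *Ubtf*, which keeps ribosomal DNA open, had 145, 155 and 153 CPM in control cells against 83.9, 85.1 and 68.9 CPM in senescent cells, for a change of -0.93 (SE 0.09, adjusted p = 4.17e-05). These genes of the same step thus changed in opposite directions, each without overlap between groups. *Ddx21*, a nucleolar helicase, rose by 1.24 (adjusted p = 1.11e-06), and *Polr1c*, a subunit shared by RNA polymerases I and III, was lower at -0.64 (adjusted p = 0.000576). Ribosomal RNA itself was not measured in these libraries of polyadenylated RNA. Of 18 chaperones and importers of RPs, 8 rose and 1 fell, with a median of 0.20, where 36.2% of all genes were higher and 34.1% lower. Offsets for GC content and length gave 8 higher genes, 5 lower genes and a median of 0.033, and without senescent replicate 3 the median was 0.081. *Tsr2*, the chaperone of *Rps26*, had 19.0, 17.4 and 19.5 CPM in control cells against 38.0, 37.8 and 43.2 CPM in senescent cells, for a change of 1.09 (SE 0.08, adjusted p = 1.14e-05), opposite in sign to *Rps26*. *Ipo7*, an importer of several RPs, rose by 1.17 (adjusted p = 1.13e-05), and *Ipo9*, another importer, was lower at -0.86 (adjusted p = 2.16e-06).

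**Figure D5:**
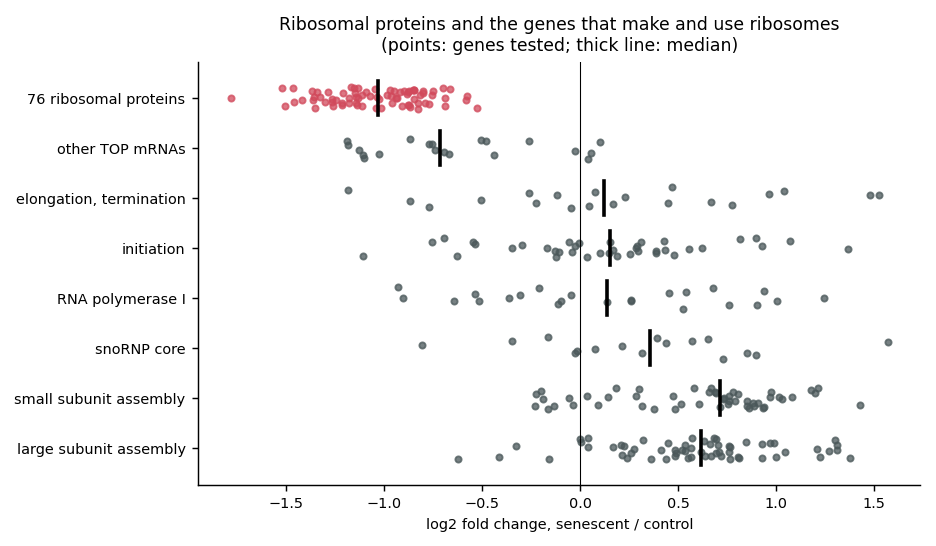
Log2 fold change (senescent over control) of the tested genes of the ribosomal proteins and of 7 lists of genes that make or use ribosomes, each point 1 gene and each thick line a median. The medians are -1.03 for the 76 ribosomal proteins and -0.72 for other TOP mRNAs, against 0.71 and 0.62 for assembly of the small and large subunit.

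Most other mRNAs known to carry a TOP tract were lower in senescent cells. Of 20 further genes known for TOP mRNAs, 16 fell (34.1% of all genes did) and 0 rose in edgeR's quasi-likelihood test (adjusted p under 0.05), with a median of -0.72. The count of 0 higher held at an unadjusted p under 0.05, by the exact test and by DESeq2, while scaling by library size alone, a floor of 10 counts in every library and leaving out senescent replicate 3 each gave 1. *Eef1a1*, which brings aminoacyl-tRNA to the ribosome, read 9259, 9084 and 9159.9 CPM in control replicates 1, 2 and 3 and 5334, 5144 and 5664 CPM in senescent replicates 1, 2 and 3. It alone held 0.892% ± 0.0136 of the counts in control cells and 0.552% ± 0.0276 in senescent cells (SD, n = 3), and its change was -0.77 (SE 0.05, adjusted p = 7.15e-06). *Eef1b2*, its exchange factor, changed by -0.87 (adjusted p = 3.08e-06). *Eif4b*, an initiation factor and target of S6 kinase, had 613, 601 and 594 CPM in control cells against 277, 281 and 279.5 CPM in senescent cells, for a change of -1.11 (SE 0.05, adjusted p = 5.41e-07). The list includes *Fau* and *Gnb2l1*, which are RPs or ribosome-bound themselves.

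Translation factors as a whole were mixed. Of 39 initiation factors, 16 rose and 8 fell (median 0.15), and of 20 genes listed for elongation and termination, 10 rose and 5 fell (median 0.12), where 36.2% of all genes were higher and 34.1% lower. The second list also holds *Eef1e1* and enzymes that modify *Eef2*, which are not elongation or termination factors themselves. The medians of both lists depended on the setting, at 0.045 and 0.056 with offsets for GC content and length, 0.23 and 0.20 with library size alone, and 0.087 and 0.11 without senescent replicate 3. *Denr*, which helps to recycle ribosomes, rose by 1.07 (adjusted p = 1.41e-06) and *Eif2b3*, a subunit of the exchange factor of eIF2, by 1.37 (adjusted p = 3.54e-06). *Eif3h*, a subunit of eIF3 and a TOP mRNA, was lower at -0.75 (adjusted p = 6.47e-06). *Eef1e1*, a protein of the synthetase complex, rose by 1.48 (adjusted p = 8.51e-06) and *Dph5*, an enzyme of the diphthamide on *Eef2*, by 0.96 (adjusted p = 1.21e-05).

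Of 39 genes that regulate TOP mRNAs and RP genes, through mTOR, LARP1 and MYC, 12 rose and 16 fell, with a median of -0.14, against 36.2% and 34.1% of all genes. Library size alone gave 14 in each direction and a median of -0.061, and the median was -0.057 with offsets for GC content and length, -0.090 with a floor of 10 counts and -0.026 without senescent replicate 3. The lower genes included *Ddit4*, an inhibitor of mTOR, at -1.50 (adjusted p = 7.88e-07), and *Mxd3*, a partner of MAX expressed in S phase, which had 15.4, 18.5 and 18.1 CPM in control cells against 0.144, 0.189 and 0.130 CPM in senescent cells for a change of -6.78 (SE 0.16, adjusted p = 3.06e-08). *Mxd3* was near 0 in every senescent library. *Max*, the partner of MYC, rose by 0.79 (adjusted p = 8.78e-06), and *Cnbp*, which binds TOP mRNAs, by 0.49 (adjusted p = 6.54e-05). Of 24 genes that handle stalled or idle ribosomes, 7 rose and 3 fell, with a median of 0.02, both shares below those of all genes. The sign of the median turned with offsets for GC content and length, which gave 7 higher genes, 8 lower genes and a median of -0.027, and leaving out senescent replicate 3 gave 9 higher genes, 6 lower genes and a median of -0.026. *Ankzf1*, which frees peptides from stalled ribosomes, was lower at -0.63 (adjusted p = 8.01e-05), and so was *Eif2ak4*, the kinase GCN2, at -0.26 (adjusted p = 0.0053). *Ascc2*, which splits collided ribosomes, was higher at 0.38 (adjusted p = 0.000661), and so was *Habp4*, a protein of idle ribosomes, at 0.43 (adjusted p = 0.000799).

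The ribosomal proteins of mitochondria are the group most alike in function, and their changes were mixed. Of 77 genes named Mrpl or Mrps, all tested, 29 fell and 20 rose, with a median of -0.13, where 34.1% of all genes were lower and 36.2% higher. Library size alone gave 22 in each direction and a median of -0.056, offsets for GC content and length 23 lower, 22 higher and -0.055, and leaving out senescent replicate 3 gave 34 lower, 22 higher and -0.056. They held 0.206% ± 0.00356 of the counts in control cells and 0.207% ± 0.00745 in senescent cells (SD, n = 3), and the ranges overlapped. The cytosolic members and the mitochondrial members were read from the same fit, and the difference between these lists was not tested.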

How the data were processed

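Raw counts per gene were deposited by the authors, who ran the MAPRSeq pipeline with STAR alignment to mm10 and Subread for counting of read pairs. Strand setting, multi-mapping rule and annotation release are not given in the sources used here. From the deposited counts, genes kept by edgeR's filterByExpr (17589 of 43346) entered the quasi-likelihood test of edgeR 4.0.16 (limma 3.58.1, R 4.3.3), robust, TMM-scaled, two-sided, with group as the only term and Benjamini-Hochberg adjustment over all genes tested. CPM and RPKM were computed here from the counts and the deposited exon lengths. TMM factors lay between 0.968 and 1.03. GC content came from GENCODE M21 transcripts. A second fit used the summed member counts as library size. No set test was made. Limits from counts of 0 (3 counts) cover counting error only, since reads carried no molecular identifiers. The interval on the share of members with a TOP tract was computed over genes and treats them as independent.

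The members and all gene lists were chosen with earlier results of these data known, and support nothing on their own. Named were the 6 largest and 6 smallest decreases among called members, the 5 closest to the median, the 5 highest per length, up to 4 values per role group, the 3 largest differences in each direction relative to the member sum, all paralogs, and the 2 smallest p in each direction of each list. No member rose, so the smallest decreases stand in place of the increases of that rule. *Rpl37a*, *Rps6*, *Rpsa*, *Rpl13* and the overlapping genes were added after their values were seen. Alternatives were offsets for GC content and length, a replicate block, each library left out, the exact test of edgeR, DESeq2 1.42.0, RLE factors, library size alone, the member sum as scale, no filter, and a floor of 10 counts per library. The scripts were tested on simulated data. Single values of some genes are not reported here.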

Additional observations from a re-analysis of the deposited data

How the results depend on the processing

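Of the 76 members, 73 to 76 were lower under the alternatives that keep total counts as the base, with medians from -0.93 to -1.07. Whether replicate numbers pair the samples cannot be told from the counts. Correlations of deviations from the group means were -0.37, 0.29 and -0.26 for same-numbered libraries, and 0.50 for control replicate 1 with senescent replicate 3. The deviations within a group sum to 0, so a library that stands apart shapes all of them. The replicate block gave 75 members lower and a median of -1.03. With the unadjusted p and fold limits, 39 were lower. Scaling by the member sum gave 10 lower, 8 higher and a median of -0.0044, by its construction. Leaving out 1 library moved the counts relative to the member sum between 3 and 15 lower and between 3 and 16 higher. It also moved the lower genes of the processome between 1 and 3 (1 without control replicate 2 or 3 or senescent replicate 2), of large subunit assembly between 1 and 3 (1 without control replicate 2 or 3), of chaperones between 1 and 2 (2 without senescent replicate 3) and of stalled ribosomes between 3 and 6 (5 without senescent replicate 2, 6 without senescent replicate 3), and the higher genes of other TOP mRNAs between 0 and 1 (1 without senescent replicate 3). Library size alone and a floor of 10 counts each gave 1 lower gene in the processome and 1 higher TOP mRNA, and the replicate block 1 lower gene in the processome. Offsets for GC content and length gave 4 lower genes in large subunit assembly, 5 among chaperones and 8 for stalled ribosomes, and the exact test and DESeq2 each gave 5 for stalled ribosomes. The TOP window of 20 bases gave 82.1% of members. *Rpl39l*, not called, turned positive with RLE scaling (0.0084), library size alone (0.066), at least 10 counts (0.037), DESeq2 (0.0080), GC and length offsets (0.093), these with the replicate block (0.092), and lay between -0.050 and 0.017 with 1 library left out, above 0 without control replicate 3 (0.010) or senescent replicate 3 (0.017). For single genes, 981 values kept direction and side of the threshold, 13 lost the call (7 of them *Emg1*, 3 *Rplp1*, 2 *Pelp1* and 1 *Rpl36*), 2 gained it and 8 turned. Except by construction, the cause was not tested. The lowest member mean in senescent cells was 26.1 CPM (*Rpl36*, 11.4 CPM in senescent replicate 3), and the part of depth was not tested.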
